A study of Mus musculus with 2 samples.

Results

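The nuclear genes for oxidative phosphorylation (OXPHOS) were followed in immune cells of the injured mouse thalamus, with and without an antibody to CD9. Members were all genes whose symbol starts with Nduf, Uqcr, Atp5, Cox4, Cox5, Cox6, Cox7 or Cox8, apart from 1 pseudogene entry, which gave 92 of the 33696 genes in the files. They comprised 41 complex I subunits, 8 complex I assembly factors (Ndufaf), 8 complex III genes, 18 complex IV genes and 17 ATP synthase genes. The rule used gene names only, though it was set with earlier results of these data known.

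OXPHOS takes place in the inner mitochondrial membrane. Complex I (NADH dehydrogenase), complex III (cytochrome bc1) and complex IV (cytochrome c oxidase) pass electrons to oxygen and pump protons, and ATP synthase uses the proton gradient to make ATP. The catalytic cores of the pumps are partly encoded in mitochondrial DNA, whereas most subunits, and all assembly factors, are nuclear genes whose proteins are imported. In immune cells, the balance between this pathway and glycolysis is known to shift when the cells are activated.

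Both libraries came from 12-week-old C57B6/J mice with cortical ablation injury (CAI), in which part of the cortex is removed and the thalamus, to which it connects, degenerates later. Mice received control Ab (normal rat IgG) or anti-CD9 Ab (clone KMC8, to the tetraspanin CD9) through a cannula into the thalamus from day 7 to day 19. On day 21 live CD45+ cells of the thalamus on the injured side were sorted and sequenced as single cells from the 3′ ends of transcripts, with 1 library per group. Thalamic libraries were made from 4 pooled mice in the methods, where the antibody groups are not counted separately. No group was without injury or without any antibody.

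The control Ab library held 12245 barcodes and 38042608 unique molecular identifiers (UMIs, each standing for 1 captured transcript), and the anti-CD9 Ab library 15173 barcodes and 40825201 UMIs. Within the study's limits of 200 to 7500 genes and no more than 2% mitochondrial counts, 7467 and 9162 cells were kept, with median depths of 1880 and 1419 UMIs. The libraries had 54 barcodes in common, 18 of them kept in both. Cells were clustered without the OXPHOS and mitochondrially encoded genes. From marker lists, 18 of 26 clusters were named, giving 8 cell types with at least 50 cells in each library, while 1420 and 2537 cells stayed unnamed. T cell-like, microglia-like and macrophage-like cells had at least 200 cells in each library and carry most of what follows. Values are summed UMIs scaled to 1000000 UMIs of the same cells (CPM), or shares of UMIs, and differences are log2 ratios of anti-CD9 Ab over control Ab. With 1 library per group no test was possible. The 95% intervals in parentheses (exact Poisson, exact binomial or exact conditional binomial) cover counting error only, and the antibody, the mice and the library cannot be told apart.

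Nuclear OXPHOS transcripts took a larger share of UMIs under anti-CD9 Ab in T cell-like and plasma cell-like cells and a slightly larger one in microglia-like cells. In T cell-like cells (2804 control Ab and 997 anti-CD9 Ab cells) the share was 1.21% (1.20 to 1.22) under control Ab and 1.37% (1.36 to 1.39) under anti-CD9 Ab, giving a log2 ratio of 0.18 (0.16 to 0.20). All 5 clusters of T cell-like cells had a ratio above 0, between 0.07 and 0.28. The cluster at 0.28 had the cell cycle genes Top2a and Mki67 among its leading genes, and its weight differed between the libraries. It held 205979 of the 4860570 control Ab UMIs and 683456 of the 2815170 anti-CD9 Ab UMIs of T cell-like cells. The part of this mix in the values for T cell-like cells was not tested. Plasma cell-like cells (145 and 122 cells) had 0.515% (0.503 to 0.527) and 0.704% (0.689 to 0.720), a log2 ratio of 0.45 (0.41 to 0.50), the largest positive one of the 8 types. This value depends on the naming. An unnamed cluster nearest to plasma cells (27 and 1176 cells) had shares of 1.33% and 1.13%, a log2 ratio of -0.24 (-0.31 to -0.17). The median gene tested in plasma cell-like cells had a log2 ratio of 0.11. Their plasma cell markers summed to 516115 and 482728 CPM, 1 marker alone reaching 473095 and 446966 CPM. All other genes shared the UMIs that remained. The part of this in the OXPHOS ratio was not tested, and the shares are hard to compare with those of other types. Microglia-like cells (1809 and 792) had 0.612% (0.607 to 0.617) and 0.647% (0.638 to 0.656), a log2 ratio of 0.08 (0.06 to 0.10). These cells formed 2 clusters, named MG#2/3-like and MG#4-like by markers of the study's microglia classes, each scored against the other. The names are therefore relative. The study's intermediate class MG#1 was not scored, so MG#4-like cells are not the same as the study's MG#4. Both clusters lay above 0, with 0.20 (0.16 to 0.24) in MG#2/3-like cells and 0.08 (0.04 to 0.11) in MG#4-like cells.

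Other features moved with these shares. The median depth of T cell-like cells was 1552.5 UMIs under control Ab and 2288 under anti-CD9 Ab. With 340 and 74 cells left out and the rest thinned to 1000 UMIs each, their log2 ratio was 0.11. Thinning also weights the cells alike, so this value does not show the part of depth alone. Microglia markers summed to 411.9 and 198.6 CPM among T cell-like cells, with 10 of 10 detected in both libraries, and NK cell markers to 23.7 and 197 CPM, with 8 of 8 detected in both. In plasma cell-like cells the microglia markers summed to 500.5 and 103 CPM. The part of these in the OXPHOS shares was not tested.

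In macrophage-like cells the direction depended on which cells were counted. The cluster held 275 control Ab and 1266 anti-CD9 Ab cells, with OXPHOS shares of 1.01% (0.997 to 1.02) and 1.19% (1.18 to 1.20), a log2 ratio of 0.24 (0.22 to 0.26). However, 105 of the 275 control Ab cells (38.2%) against 10 of the 1266 anti-CD9 Ab cells (0.790%) were called microglia by the marker UMIs of each cell alone. Microglia markers in the cluster summed to 6509 CPM under control Ab and 890.8 CPM under anti-CD9 Ab, and 10 of 10 were detected in both. Among the 64 and 956 cells that both ways called macrophage-like, the OXPHOS share was 1.31% (1.27 to 1.34) under control Ab and 1.20% (1.19 to 1.21) under anti-CD9 Ab, giving a log2 ratio of -0.12 (-0.17 to -0.08). In these cells the microglia markers summed to 1754 and 776.5 CPM, with Sall1 and P2ry13 at 0 under control Ab. Predicted doublets were 1.56% of these cells under control Ab and 15.4% under anti-CD9 Ab, beside 27.6% and 22.0% in the whole cluster. The part of this in the OXPHOS shares was not tested. Both values are therefore given below for the main results on macrophage-like cells.

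Dendritic cell-like cells (121 and 382) had 1.11% (1.09 to 1.14) and 1.15% (1.13 to 1.16), a log2 ratio of 0.04 (0.01 to 0.08). Their 2 clusters lay on either side of 0, at 0.18 (0.14 to 0.22) from 104 and 217 cells and at -0.21 (-0.34 to -0.08) from 17 and 165 cells. Neutrophil-like cells stood on the other side, at 0.835% (0.770 to 0.904) under control Ab and 0.512% (0.505 to 0.520) under anti-CD9 Ab, giving a log2 ratio of -0.70 (-0.82 to -0.58), but the control Ab library held only 64 of them against 2779. Their neutrophil markers summed to 88324 CPM under control Ab and 37968 CPM under anti-CD9 Ab, and their macrophage markers to 6820 and 1481 CPM, so the named cells were unlike each other beyond the OXPHOS genes. Oligodendrocyte-like cells (303 and 93) had a log2 ratio of -0.26 (-0.41 to -0.12), which other settings moved to between -0.51 and 0.48, and astrocyte-like cells (422 and 77) of -0.02 (-0.21 to 0.15). In both libraries T cell-like, macrophage-like and dendritic cell-like cells lay between 1.01% and 1.37% and thus above microglia-like cells, at 0.612% and 0.647%.

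**Figure D1:**
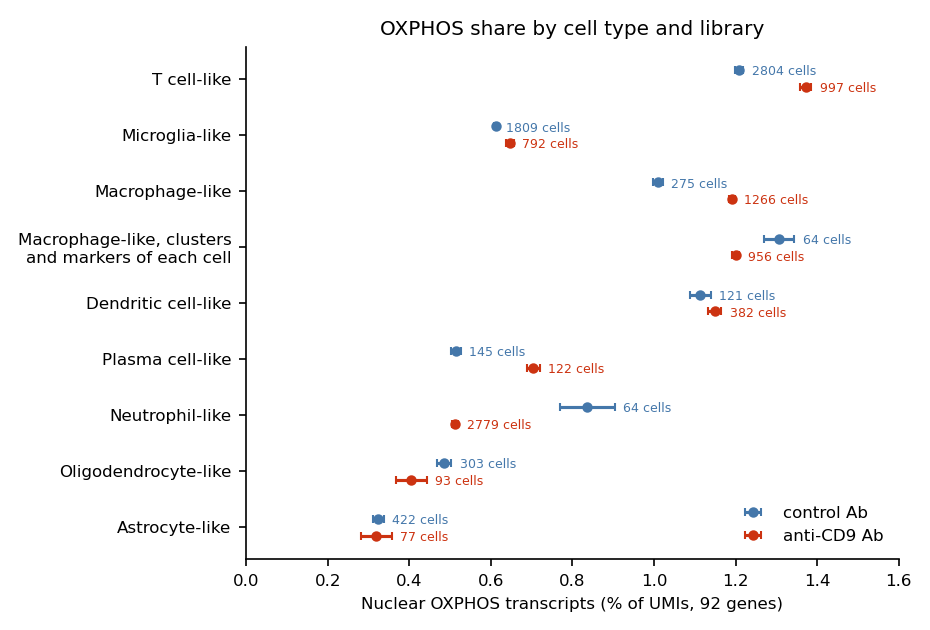
Share of UMIs from the 92 nuclear OXPHOS genes, in percent, in each cell type of the control Ab and the anti-CD9 Ab library, with exact binomial 95% intervals that cover counting error only. T cell-like cells lay at 1.21% and 1.37% and neutrophil-like cells at 0.835% and 0.512%; the macrophage-like cells changed order between the whole cluster and the cells named by both ways.

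Complex by complex, complex IV had a higher log2 ratio than complex I in most types. In T cell-like cells the summed level of complex IV was 3037 CPM under control Ab and 3747 CPM under anti-CD9 Ab, giving a log2 ratio of 0.30 (0.27 to 0.34), whereas complex I subunits had 4026 and 4317 CPM, a log2 ratio of 0.10 (0.07 to 0.13). Complex III (0.19, 0.13 to 0.26) and ATP synthase (0.19, 0.16 to 0.23) lay between them. The largest T cell-like cluster (1168 and 439 cells) had 0.01 (-0.05 to 0.07) for complex I and -0.003 (-0.061 to 0.056) for ATP synthase. There complex III was at 0.20 (0.09 to 0.30) and complex IV at 0.22 (0.16 to 0.29). Microglia-like cells also had complex IV highest, with log2 ratios of 0.17 (0.12 to 0.22) for complex IV, 0.09 (0.01 to 0.17) for complex III, 0.05 (0.01 to 0.09) for complex I and 0.04 (-0.01 to 0.08) for ATP synthase. Complex IV minus complex I was above 0 in 9 of 9 settings in T cell-like cells, at 0.19 to 0.22, in 9 of 9 in microglia-like cells, at 0.10 to 0.24, in 9 of 9 in macrophage-like cells, at 0.19 to 0.25, and in 8 of 8 in dendritic cell-like cells, at 0.15 to 0.18. In plasma cell-like cells it was above 0 in 3 of 9 settings, and complexes I, III, IV and ATP synthase had log2 ratios between 0.43 and 0.47. Centring on the median of all genes, and leaving out ribosomal, mitochondrial and Malat1 UMIs, shift all complexes alike. Those settings could not change complex IV minus complex I and are no further support for it.

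The macrophage-like cluster had log2 ratios of 0.15 (0.12 to 0.19) for complex I, 0.33 (0.26 to 0.40) for complex III, 0.39 (0.35 to 0.43) for complex IV and 0.21 (0.17 to 0.25) for ATP synthase. In the cells named by both ways these were -0.20 (-0.28 to -0.13), 0.06 (-0.10 to 0.22), 0.02 (-0.07 to 0.10) and -0.19 (-0.26 to -0.11). The level moved between the ways of naming, while complex IV stayed above complex I. Dendritic cell-like cells had 0.23 (0.15 to 0.30) for complex IV and, for ATP synthase, -0.10 (-0.17 to -0.03). In neutrophil-like cells the 4 complexes lay between -0.88 and -0.50, with complex IV nearest to 0.

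**Figure D2:**
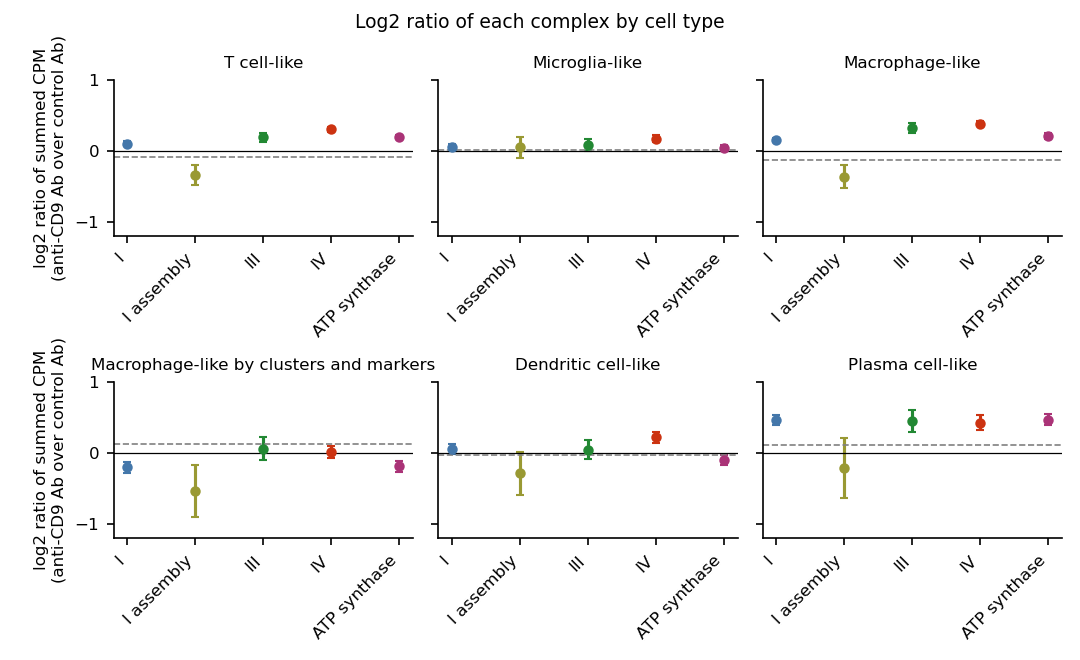
Summed CPM of anti-CD9 Ab over that of control Ab, on the log2 scale, for each complex in 5 cell types and in the macrophage-like cells named by clusters and markers, with exact conditional binomial 95% intervals that cover counting error only and a dashed line at the median of all genes tested. In T cell-like cells complex IV lay at 0.30, complex I at 0.10 and the assembly factors at -0.34.

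At the settings used here, few single members differed by much in T cell-like and microglia-like cells, and more did in the macrophage-like cluster. A member was counted as past the fold at a log2 ratio of 0.5 or beyond, given at least 50 UMIs over both libraries. Of 82 members tested in T cell-like cells, 5 (6.10%) were past it on the higher side, where 8.55% of all genes tested were, and 4 (4.88%) on the lower side, against 13.5%. Microglia-like cells had 4 of 83 (4.82%, against 11%) higher and 2 (2.41%, against 12.3%) lower. At these settings a smaller share of the members than of all genes was past the fold on either side in both types. On the higher side this turned with other settings, to 16 of 82 members against 11% of all genes in T cell-like cells when ratios were centred on the median of all genes, to 10 of 83 against 9.29% there with a limit of 5% mitochondrial counts, and to 19 of 83 against 9.75% in microglia-like cells with 20 principal components. In the macrophage-like cluster 20 of 83 (24.1%, against 14.6%) were higher and 4 (4.82%, against 26.3%) lower, and in the cells named by both ways 4 of 80 (5%, against 30.5%) were higher and 13 (16.2%, against 18.3%) lower. Dendritic cell-like cells had 8 of 78 (10.3%, against 18.2%) higher and 5 (6.41%, against 16.2%) lower. Plasma cell-like cells had 37 of 72 (51.4%, against 19.4%) higher and 2 (2.78%, against 13.8%) lower. Both shares on the higher side depended on the setting in these cells. Centred on the median of all genes, 27 of 72 members were higher against 14.4% of all genes. With a limit of 5% mitochondrial counts it was 58 of 79 against 41.7%, and with cells named by their own markers 51 of 70 against 54.9%. In neutrophil-like cells 6 of 71 (8.45%, against 23.3%) were higher and 38 (53.5%, against 36.7%) lower. Oligodendrocyte-like cells had 0 of 21 (against 17.4%) higher and 7 (33.3%, against 24%) lower, and astrocyte-like cells 1 of 13 (7.69%, against 14.5%) higher and 3 (23.1%, against 24.1%) lower. MG#2/3-like cells had 17 of 82 (20.7%, against 9.58%) higher and 2 (2.44%, against 13.4%) lower, and MG#4-like cells 9 of 82 (11%, against 13.4%) higher and 1 (1.22%, against 14.6%) lower.

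The sign of the ratio was shared more widely than its size. Of the 92 members, 83 reached 50 UMIs in at least 1 type and 72 did so in T cell-like, microglia-like, macrophage-like, dendritic cell-like and plasma cell-like cells alike. Among those 72, 35 were above 0 in all 5 types, 0 were below 0 in all 5 and 37 were mixed. By complex, 10 of 11 complex IV genes, 4 of 8 complex III genes, 8 of 17 ATP synthase genes and 13 of 36 complex I subunits were above 0 in all 5. The same count over all genes was not made, so no excess over other genes can be read from these. In the order of types above, the median of all genes tested was -0.09, 0.01, -0.13, -0.02 and 0.11. The macrophage-like values here are those of the whole cluster. Ratios close to 0 count by their sign, such as that of Cox4i1 in T cell-like cells at 0.00 (-0.09 to 0.09). These counts rest on the members that passed the UMI minimum and on the same 2 libraries in every type, so the types are not repeats of each other.

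**Figure D3:**
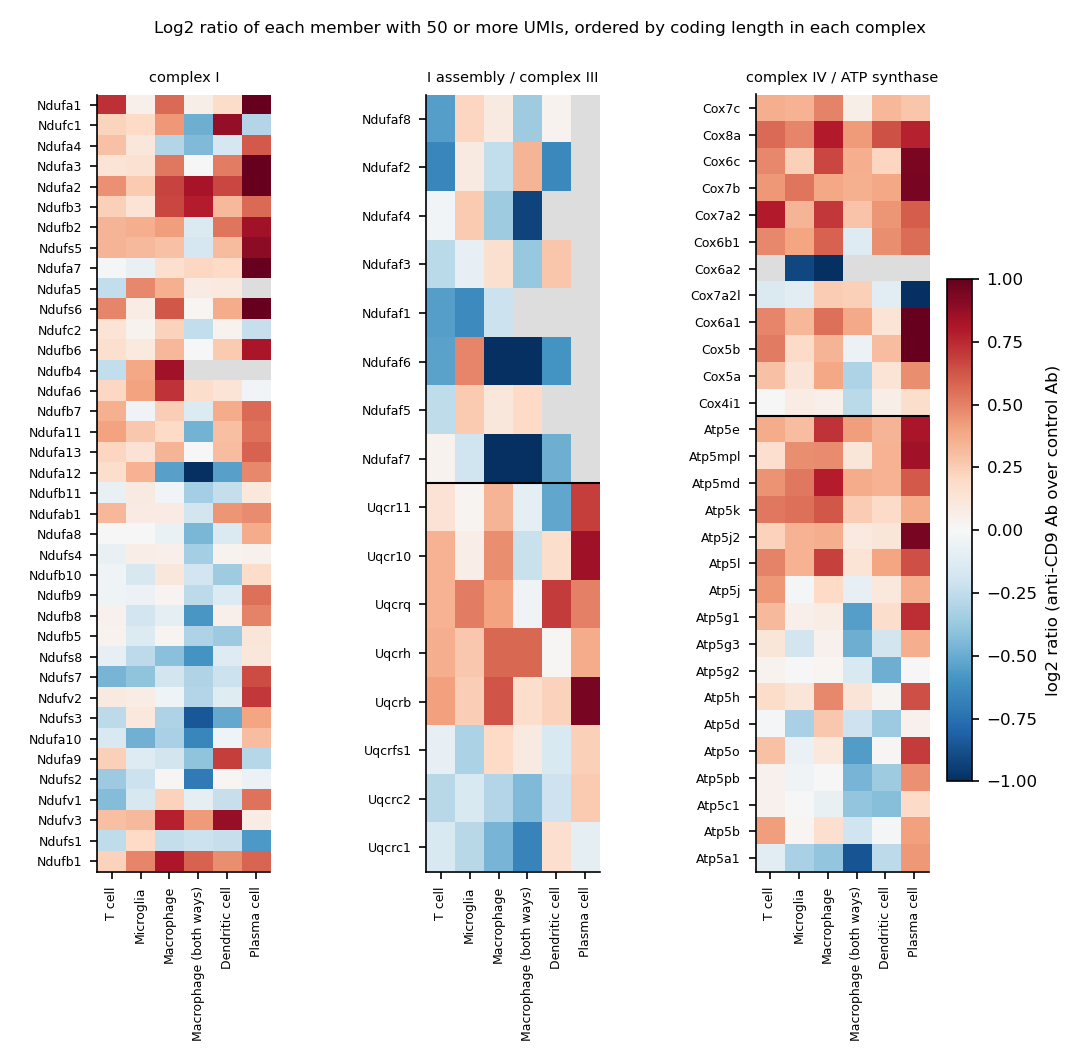
Log2 ratio (anti-CD9 Ab to control Ab) of each member in 5 cell types and in the macrophage-like cells named by both ways, with members grouped by complex and ordered by coding length, Ndufb1 last for want of one; grey marks fewer than 50 UMIs, and the colours are limited to 1 either side of 0. In the complex IV block, 10 of the 11 genes with enough UMIs in all 5 types are above 0 throughout, while the cells named by both ways are below 0 for 52 of 80 members.

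Among complex I subunits, Ndufb9, an accessory subunit and the one with the most UMIs, had close to the same level in both libraries, with 212 and 206 CPM among T cell-like cells and 105 and 100.3 CPM in microglia-like cells. Ndufa4, which was first assigned to complex I and later found with complex IV, had 184 CPM under control Ab and 226 CPM under anti-CD9 Ab in T cell-like cells, a log2 ratio of 0.30 (0.15 to 0.44). In the macrophage-like cluster Ndufa4 had 156 and 127 CPM, a log2 ratio of -0.29 (-0.46 to -0.12), and -0.44 (-0.83 to -0.03) in the cells named by both ways, so it was lower there whichever cells were counted. Ndufab1, the mitochondrial acyl carrier protein that also serves fatty acid synthesis, had log2 ratios of 0.33 (0.14 to 0.53) in T cell-like cells and 0.08 (-0.16 to 0.32) in microglia-like cells.

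Ndufa1, a small membrane-arm subunit needed for assembly, had the highest ratio of the members in plasma cell-like cells, with 62.6 CPM under control Ab and 129 CPM under anti-CD9 Ab, giving a log2 ratio of 1.05 (0.66 to 1.44). Ndufa1 levels of T cell-like cells were 66.0 and 109.8 CPM, a log2 ratio of 0.73 (0.50 to 0.96), and at 0.05 (-0.30 to 0.39) in microglia-like cells. Ndufb1, likewise a small accessory subunit, led the macrophage-like cluster with 112 and 196 CPM, a log2 ratio of 0.81 (0.62 to 1.00), and was above 0 in the cells named by both ways too, at 0.59 (0.16 to 1.05). Ndufa12, an accessory subunit of the matrix arm, was the lowest there among members with at least 200 UMIs, with 70.6 and 48.5 CPM, a log2 ratio of -0.54 (-0.81 to -0.27), and reached -1.17 (-1.67 to -0.64) in the cells named by both ways, from 38 and 245 UMIs. Chosen after their values were seen, 2 core subunits that carry the electron path had log2 ratios below 0 in T cell-like cells. Ndufs1 had 60.3 and 50.4 CPM among T cell-like cells (-0.26, -0.56 to 0.04), and Ndufv1, which binds NADH, had 42.8 and 31.6 CPM (-0.44, -0.81 to -0.07).

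The complex I assembly factors went against the subunits in T cell-like cells. These proteins help to build complex I and are not part of the finished enzyme. Their summed level was 264 CPM under control Ab and 208 CPM under anti-CD9 Ab in T cell-like cells, a log2 ratio of -0.34 (-0.49 to -0.20), and 7 of 8 were below 0. Ndufaf2, an assembly chaperone and the lowest member in T cell-like cells, had 54.7 and 34.8 CPM, a log2 ratio of -0.65 (-1.0 to -0.31). In microglia-like cells it had 30.6 and 32.6 CPM (0.09, -0.26 to 0.43), and the 8 factors together 0.05 (-0.09 to 0.19). In the macrophage-like cluster the factors summed to -0.36 (-0.53 to -0.20), and to -0.54 (-0.90 to -0.16) in the cells named by both ways. Ndufaf7, a methyltransferase that modifies a complex I subunit, was the main part of this, with 34.3 and 10.3 CPM, a log2 ratio of -1.73 (-2.20 to -1.26), and -1.42 (-2.41 to -0.29) in the cells named by both ways. Ndufaf7 stood at 53.3 CPM in control Ab microglia-like cells, and the part of the microglia-called cells given above in its difference was not tested.

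In complex III, the 5 subunits with short coding sequences were above 0 in T cell-like and microglia-like cells and in the macrophage-like cluster, and of the 3 longer ones 0, 0 and 1 were. In the macrophage-like cells named by both ways, 2 of the 5 short and 1 of the 3 longer ones were above 0. Uqcrh, the hinge protein at the cytochrome c1 site, had 353 and 454 CPM among T cell-like cells, a log2 ratio of 0.36 (0.26 to 0.47), and 196 and 292 CPM in the macrophage-like cluster, a log2 ratio of 0.58 (0.44 to 0.72) there and 0.57 (0.22 to 0.94) in the cells named by both ways. It was thus 1 of the members whose ratio did not depend on how macrophage-like cells were named. In MG#2/3-like cells Uqcrh had 103 and 159 CPM, a log2 ratio of 0.63 (0.40 to 0.85). Uqcrb, a ubiquinone-binding subunit, had 113 and 150 CPM among T cell-like cells (0.41, 0.23 to 0.60) and 50.5 and 97.5 CPM in plasma cell-like cells (0.95, 0.51 to 1.40). Uqcrq, a small subunit next to cytochrome b, was the highest member in dendritic cell-like cells, with 70.2 and 114 CPM, a log2 ratio of 0.70 (0.23 to 1.19). By contrast Uqcrc1, a large core protein named after its values were seen, had 73.2 and 66.1 CPM among T cell-like cells, a log2 ratio of -0.15 (-0.41 to 0.11).

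Complex IV subunits did not move in step. Cox4i1, a regulatory subunit and the one with the most UMIs, had 623 CPM among T cell-like cells of both libraries, a log2 ratio of 0.00 (-0.09 to 0.09), while Cox5a, which binds next to it in the complex, had 618 and 758 CPM, a log2 ratio of 0.29 (0.21 to 0.37). UMIs of Cox5a per UMI of Cox4i1 were therefore 0.993 (0.944 to 1.04) under control Ab and 1.22 (1.14 to 1.30) under anti-CD9 Ab in T cell-like cells. This ratio, taken from 3′ counts within each library, was 0.382 and 0.397 in microglia-like cells and 0.763 and 0.803 in dendritic cell-like cells, where the intervals overlapped, and 0.536 and 0.678 in the macrophage-like cluster. In the macrophage-like cells named by both ways it was 0.695 (0.577 to 0.836) and 0.675 (0.640 to 0.712), which overlapped.

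Cox7a2, a small subunit, had the highest ratio of the members in T cell-like cells, with 119 and 206 CPM, a log2 ratio of 0.79 (0.62 to 0.96), against 64.8 and 81.9 CPM in microglia-like cells (0.34, 0.11 to 0.56). Its relative Cox7a2l, known for joining complexes III and IV into supercomplexes, was the complex IV gene of the 11 that was not above 0 in all 5 types. It was below 0 in 4 of the 5, with 361 and 328 CPM among T cell-like cells (-0.14, -0.26 to -0.03). In plasma cell-like cells Cox7a2l was the lowest member, with 105 and 48.7 CPM, a log2 ratio of -1.11 (-1.57 to -0.66), where Cox7a2 had 0.61 (0.22 to 0.99). UMIs of Cox7a2l per UMI of Cox7a2 were 3.04 and 1.59 among T cell-like, 3.56 and 2.60 among microglia-like, 4.06 and 2.78 among dendritic cell-like and 1.47 and 0.446 among plasma cell-like cells, lower under anti-CD9 Ab in each. The intervals of dendritic cell-like cells overlapped (3.10 to 5.37 and 2.39 to 3.25). In the macrophage-like cluster the ratio was 2.20 and 1.61. In the cells named by both ways it was 1.68 (1.21 to 2.36) and 1.63 (1.51 to 1.76), which overlapped. Cox8a, a small subunit named after its values were seen, had 350 and 519 CPM among T cell-like cells (0.57, 0.46 to 0.67), 181 and 254 CPM in microglia-like cells (0.49, 0.36 to 0.61) and 0.43 (0.18 to 0.69) in the macrophage-like cells named by both ways.

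The exception in complex IV was Cox6a2, the isoform of subunit VIa that textbooks assign to heart and skeletal muscle. In microglia-like cells it had 67.2 CPM (632 UMIs) under control Ab and 35.8 CPM (101 UMIs) under anti-CD9 Ab, giving a log2 ratio of -0.91 (-1.23 to -0.60), the lowest of the members with at least 200 UMIs there. MG#4-like cells had 96.2 and 49.5 CPM, a log2 ratio of -0.96 (-1.37 to -0.57), and MG#2/3-like cells 30.6 and 25.2 CPM (-0.28, -0.83 to 0.24). These intervals overlapped. The difference between these classes was not tested. The general isoform Cox6a1 had 48.8 and 61.3 CPM in microglia-like cells (0.33, 0.07 to 0.58) and 59.8 and 67.4 CPM in MG#4-like cells (0.17, -0.20 to 0.52). UMIs of Cox6a2 per UMI of Cox6a1 were 1.61 under control Ab and 0.735 under anti-CD9 Ab in MG#4-like cells. MG#4-like cells were thinned to 1000 UMIs each, with 12 left out in each library. A Cox6a2 UMI was then found in 8.33% (6.54 to 10.4) of control Ab and 3.53% (1.77 to 6.22) of anti-CD9 Ab cells. Unthinned, the shares were 35.0% and 14.8%. For T cell-like cells, taken as background, the thinned shares were 0.487% (12 of 2464 cells) and 0 of 923 cells, which allows a share of up to 0.325% by 3 counts of the total, and the unthinned shares were 0.856% and 0.401%. In the macrophage-like cluster Cox6a2 had 46.3 and 2.07 CPM, and in the cells named by both ways 10 and 7 UMIs (28.7 and 1.39 CPM). The microglia markers given above were also lower under anti-CD9 Ab in both sets of cells, and their part in this difference was not tested. The microglia markers themselves summed to 14039 and 9149.8 CPM in microglia-like cells. In MG#4-like cells they summed to 12600 and 7233 CPM, neutrophil markers to 444.5 and 1707.5 CPM, and plasma cell markers to 1033 and 344.9 CPM, and the part of these markers in the Cox6a2 difference was not tested. Without predicted doublets the microglia-like values were 66.0 and 37.7 CPM, a log2 ratio of -0.81 (-1.14 to -0.49). Predicted doublets were 7.26% of control Ab and 20.4% of anti-CD9 Ab MG#4-like cells. Without them MG#4-like cells had 95.8 and 57.7 CPM, a log2 ratio of -0.73 (-1.17 to -0.32). MG#2/3-like cells then had a log2 ratio of -0.28 (-0.85 to 0.26).

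**Figure D4:**
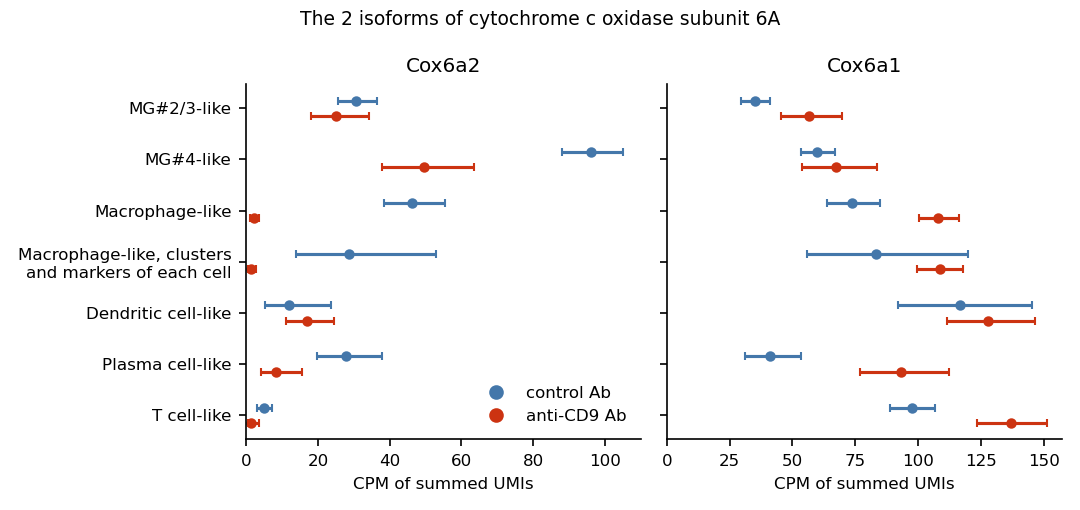
Levels of Cox6a1 and Cox6a2 in CPM by cell type and library, with exact Poisson 95% intervals that cover counting error only. In MG#4-like cells Cox6a2 lay at 96.2 CPM under control Ab and 49.5 CPM under anti-CD9 Ab, while Cox6a1 lay at 59.8 and 67.4 CPM.

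Other isoforms that textbooks assign to particular tissues or to hypoxia were almost silent. Over all kept cells, Cox4i2 had 75 UMIs, Cox6b2 63, Cox7a1 39, Cox7b2 15 and Ndufa4l2 15, and Cox8b and Cox8c had 0. None of these 7 reached 50 UMIs in any cell type compared. Cox6c2 and the ATP synthase inhibitor Atp5if1 were not listed under these symbols.

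In ATP synthase, Atp5g2, which encodes the c subunit of the rotor and had the most UMIs in this complex, was level in T cell-like cells, with 464 and 474 CPM (0.03, -0.07 to 0.13), and in microglia-like cells, with 285 and 286 CPM (0.00, -0.11 to 0.12). In dendritic cell-like cells it was the lowest member with at least 200 UMIs, with 584 and 416 CPM, a log2 ratio of -0.49 (-0.67 to -0.31). Atp5h, a stalk subunit, had 342 and 388 CPM among T cell-like cells (0.18, 0.07 to 0.29) and 237 and 331 CPM in the macrophage-like cluster (0.48, 0.35 to 0.61), against 0.13 (-0.15 to 0.43) in the cells named by both ways. Atp5k, subunit e of the membrane part, was the highest member in microglia-like cells, with 21.3 and 31.2 CPM, a log2 ratio of 0.55 (0.17 to 0.92), and had 0.53 (0.27 to 0.79) in T cell-like cells. Atp5l, subunit g, which sits beside it and was named after its values were seen, had 235 and 332 CPM among T cell-like cells (0.50, 0.37 to 0.62) and 113 and 144 CPM in microglia-like cells (0.34, 0.18 to 0.51). The large catalytic subunits were not alike. Atp5a1, the alpha subunit, had 288 and 266 CPM among T cell-like cells (-0.12, -0.25 to 0.01) and 178 and 143 CPM in microglia-like cells (-0.32, -0.48 to -0.16), and Atp5b, the beta subunit, had 237 and 316 CPM (0.42, 0.29 to 0.55) and 147 and 149.6 CPM (0.02, -0.14 to 0.18). Both were named after their values were seen.

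Across the members, the ratio went with the length of the coding sequence. The split at 450 bases used here was chosen after seeing the data. Complex IV genes had a median coding length of 253.5 bases, complex III 300, ATP synthase 423, complex I subunits 435 and assembly factors 772.5. In T cell-like cells the 44 tested subunits under 450 bases summed to 6595 and 8214 CPM, a log2 ratio of 0.32 (0.29 to 0.34), and 40 of the 44 were above 0. The 29 subunits of 450 bases or more summed to 5096 and 5145 CPM, a log2 ratio of 0.01 (-0.02 to 0.04), and 13 of 29 were above 0. Microglia-like cells had 0.18 (0.15 to 0.22) for the short and -0.06 (-0.09 to -0.02) for the long ones. The order held inside complexes, with 0.26 against -0.04 in complex I and 0.35 against -0.17 in complex III of T cell-like cells, and 0.26 against -0.23 in complex III of microglia-like cells. Macrophage-like cells had 0.40 (0.37 to 0.43) and 0.02 (-0.01 to 0.05) in the cluster, and 0.03 (-0.03 to 0.09) and -0.34 (-0.41 to -0.28) in the cells named by both ways.

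The value of short minus long subunits was above 0 in every setting in which it was computed, for all 8 types. It ran from 0.29 to 0.31 in T cell-like, 0.23 to 0.31 in microglia-like, 0.34 to 0.40 in macrophage-like, 0.28 to 0.32 in dendritic cell-like, 0.20 to 0.32 in plasma cell-like, 0.63 to 0.69 in neutrophil-like, 0.34 to 0.46 in oligodendrocyte-like and 0.09 to 0.35 in astrocyte-like cells. Centring on the median of all genes, and leaving out ribosomal, mitochondrial and Malat1 UMIs, shift short and long subunits alike. Those settings could not change the value of short minus long. The types come from the same 2 libraries, so any property of a library is shared by them. As a description over genes, which are not independent replicates, Spearman's rho between coding length and log2 ratio was -0.62 over 81 members in T cell-like cells, -0.57 over 82 in microglia-like cells, -0.67 over 82 in the macrophage-like cluster, and -0.56 over 79 in the macrophage-like cells named by both ways. Over all other genes with a coding length it was -0.02 in T cell-like, 0.13 in microglia-like cells, -0.04 in the macrophage-like cluster and 0.20 in the cells named by both ways. Short genes outside the members nevertheless had higher medians than those of 450 to 900 bases. For under 300, 300 to 450 and 450 to 900 bases these medians were 0.10, 0.02 and -0.09 in T cell-like cells. They were 0.06, -0.01 and -0.08 in microglia-like cells and 0.28, 0.04 and -0.12 in the macrophage-like cluster. In the cells named by both ways they were 0.08, -0.10 and -0.11, with 0.06 from 900 to 1500 bases. From 1500 bases up the medians were -0.10 in T cell-like cells, 0.07 in microglia-like cells and -0.15 in the macrophage-like cluster. The cells named by both ways had 0.29 there. In microglia-like cells and the cells named by both ways the longest other genes were thus no lower than the shortest. Cytosolic ribosomal protein genes, which are also short and abundant, had a like order in both of the types given here. In microglia-like cells their median log2 ratio was 0.35 over 30 genes from 300 to 450 bases and -0.02 over 39 genes from 450 to 900 bases, beside medians of 0.14 and -0.02 for the members, and in T cell-like cells 0.28 and -0.01 beside 0.27 and -0.02. The cause of this pattern was not tested.

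**Figure D5:**
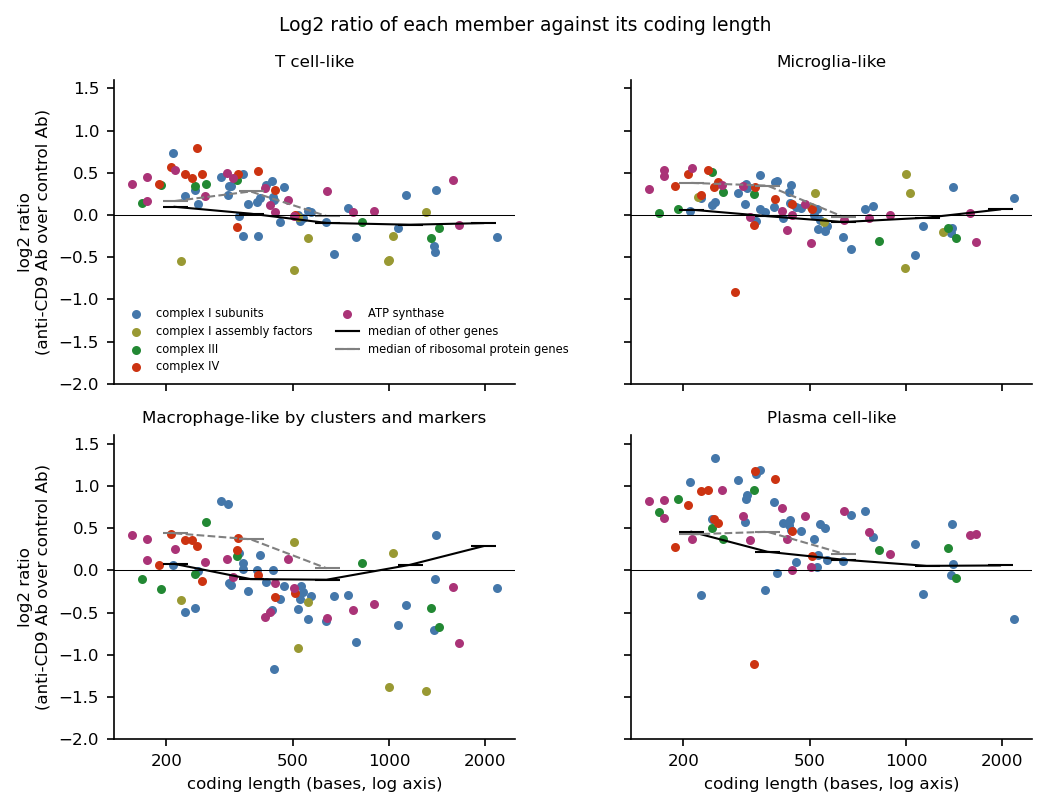
Log2 ratio (anti-CD9 Ab to control Ab) of each member against its coding length in bases (log axis) in T cell-like cells, microglia-like cells, macrophage-like cells named by both ways and plasma cell-like cells, with lines for the median per length bin of ribosomal protein genes and of other genes. Above 0 lie 40 of 44 subunits under 450 bases and 13 of 29 longer ones in T cell-like cells, in microglia-like cells 39 of 45 and 12 of 29, in the macrophage-like cells 22 of 43 and 3 of 29, and in plasma cell-like cells 38 of 42 and 25 of 29. The split at 450 bases was chosen after seeing the data.

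Promoters were looked at because many members moved together. Many nuclear OXPHOS genes are known targets of NRF1, of ETS-family factors such as GABP, and of YY1. In windows of 300 bases around the start, from RefSeq on GRCm38.p6, 80 promoters of 75 member genes were matched by symbol, and each motif was searched on both strands. The NRF1 letters GCGCATGCG were in 10 (12.5%) of them and in 1.75% of all 32851 promoters, the ETS letters CCGGAAG in 17 (21.2%) and in 8.86%, and the YY1 letters AAGATGGCG in 8 (10%) and in 1.40%. The end of the ETS letters and the start of the YY1 letters are the same 3 bases, so 1 stretch can count for both. Below are the 250 bases before the start for 3 short subunits described above and chosen for their values, with motif matches on either strand in capitals. Cox6a1 lies on the minus strand at chr5:115348959-115349208 and holds the NRF1 and ETS letters, Atp5l on the minus strand at chr9:44920743-44920992 and holds both as well, and Cox8a on the minus strand at chr19:7217617-7217866, where none of these letters were in the window.
Cox6a1: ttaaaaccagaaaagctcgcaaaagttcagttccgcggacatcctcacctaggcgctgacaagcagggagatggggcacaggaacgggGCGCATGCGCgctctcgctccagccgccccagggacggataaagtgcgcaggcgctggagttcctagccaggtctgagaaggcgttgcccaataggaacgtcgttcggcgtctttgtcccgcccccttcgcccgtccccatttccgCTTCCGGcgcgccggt
Atp5l: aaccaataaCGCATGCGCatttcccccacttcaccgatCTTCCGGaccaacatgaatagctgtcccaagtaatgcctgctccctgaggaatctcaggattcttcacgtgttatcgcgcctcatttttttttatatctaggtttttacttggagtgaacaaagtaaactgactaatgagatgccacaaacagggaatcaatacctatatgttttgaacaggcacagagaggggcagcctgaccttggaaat
Cox8a: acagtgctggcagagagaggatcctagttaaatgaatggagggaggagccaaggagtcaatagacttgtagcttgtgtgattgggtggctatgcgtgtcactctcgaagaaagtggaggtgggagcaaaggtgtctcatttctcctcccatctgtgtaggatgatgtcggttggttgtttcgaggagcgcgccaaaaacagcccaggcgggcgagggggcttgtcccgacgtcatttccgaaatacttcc
All 3 genes had a log2 ratio above 0 in T cell-like cells, at 0.49 (0.29 to 0.68), 0.50 (0.37 to 0.62) and 0.57 (0.46 to 0.67). As they were chosen for their values, this says nothing about the motifs. A match is a description of the sequence and was not tied to the antibody.

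The rest of the pathway did not follow the subunits as a block. The 4 genes of complex II (succinate dehydrogenase), which is encoded wholly in the nucleus, had 0 of 4 past the fold in T cell-like, microglia-like and macrophage-like cells. The shares of all genes past it in these types are given above. Log2 ratios of the sum were 0.04 (-0.07 to 0.16), -0.03 (-0.14 to 0.09) and -0.05 (-0.16 to 0.07), and in the macrophage-like cells named by both ways it was -0.23 (-0.48 to 0.03). Of the 13 genes of the TCA cycle, which feeds the chain, 1 was higher and 0 were lower in T cell-like cells, against 8.55% and 13.5% of all genes. Cycs, cytochrome c, had 73.9 and 111 CPM among T cell-like cells, a log2 ratio of 0.59 (0.37 to 0.81), and 32.7 and 79.0 CPM in plasma cell-like cells, a log2 ratio of 1.27 (0.75 to 1.81). The mitochondrial ribosome, which makes the subunits encoded in mitochondrial DNA, had 4430 and 4423 CPM among T cell-like cells. There 2 of 78 genes were higher and 3 lower, against 8.55% and 13.5% of all genes. Among plasma cell-like cells it had 1877 and 2396 CPM. There 16 of 46 tested genes were higher and 0 lower, against 19.4% and 13.8% of all genes. The 13 mitochondrially encoded subunits summed to 11305 and 14730 CPM among T cell-like cells, a log2 ratio of 0.38 (0.36 to 0.40), although the limit of 2% mitochondrial counts per cell caps this sum. Among them mt-Co1, the catalytic core of complex IV, had 1214 and 2167 CPM among T cell-like cells (0.84, 0.78 to 0.89).

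Glycolysis genes had larger ratios than the OXPHOS genes in T cell-like cells. Of 14 tested, 8 were past the fold on the higher side, where 8.55% of all genes tested were, and 0 on the lower, against 13.5%. The median log2 ratio was 0.64 beside 0.16 for the OXPHOS members and -0.09 for all genes tested. The sum was 2605 and 4204 CPM, a log2 ratio of 0.69 (0.65 to 0.73). Pgk1, an ATP-forming enzyme of glycolysis, had 157 and 304 CPM, and Ldha, which makes lactate, 284 and 541 CPM. The part in these values of the T cell-like cluster with cell cycle genes, described above, was not tested. In the macrophage-like cluster 13 of 14 were higher, against 14.6% of all genes (sum 0.82, 0.79 to 0.86). In the cells named by both ways 9 of 14 were, against 30.5% (sum 0.48, 0.41 to 0.55), where the OXPHOS sum was below 0. Microglia-like cells had a sum of -0.08 (-0.13 to -0.04), with 2 of 14 higher and 0 lower, against 11% and 12.3% of all genes. Plasma cell-like cells had a sum of -0.15 (-0.28 to -0.01), with 1 of 11 higher and 3 lower, against 19.4% and 13.8%. In plasma cell-like cells the OXPHOS and glycolysis sums thus lay on opposite sides of 0, a difference that was not tested.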

How the data were processed

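Per the labels and file headers, the authors deposited filtered matrices of UMI counts per gene and cell, made with Cell Ranger 8.0.0 on GRCm39 by the submitters' processing notes; the methods name other versions. Whether intronic reads were counted is not given in the sources used here. Cells with 200 to 7500 genes and no more than 2% mitochondrial counts were kept. Seurat 5.3.0 in R 4.3.3 integrated the libraries by anchors (2000 variable genes without OXPHOS and mitochondrial genes, 30 principal components, resolution 0.8). Clusters were named X-like when 60% of a marker list, and at least 3 markers, led in them. This share was raised after seeing the data, so that a cluster led by Ttr stayed unnamed. It was nearest to plasma cells, with 4 of 7 markers, and is the unnamed cluster given beside the plasma cell-like cells. Predicted doublets (10.8% and 12.6% of kept cells) were marked and kept. The ratio code was tested on simulated counts.

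UMIs were summed per type and library in Python 3.11.15. Called genes had at least 50 UMIs and a log2 ratio of 0.5 or beyond; a gene at 0 in a library was set against a floor of 3 counts. Named genes were, per complex, the 2 members with most UMIs, per type the highest and lowest ratio among members with at least 200 UMIs, restricted isoforms and members with further roles; others are said to be named after their values were seen. Members, gene lists and alternatives were chosen with earlier results of these data known. Alternatives changed the mitochondrial limit, doublets, naming, integration, components, seed, scaling, weighting, members summed and call limits. Coding lengths came from the GENCODE basic annotation on GRCm38, by Ensembl gene ID, and promoters from RefSeq on GRCm38.p6. PCR and capture error are outside the intervals.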

Additional observations from a re-analysis of the deposited data

Results flagged for a closer look

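The 8 complex I assembly factors together lay below 0 in T cell-like cells and the macrophage-like cluster, while all members together lay above it, with log2 ratios of -0.34 (-0.49 to -0.20) and -0.36 (-0.53 to -0.20). In the macrophage-like cells named by both ways both sums lay below 0, at -0.54 (-0.90 to -0.16) for the factors and -0.12 (-0.17 to -0.08) for all members. In neutrophil-like cells the summed OXPHOS log2 ratio was -0.70 (-0.82 to -0.58), from 64 and 2779 cells, and in oligodendrocyte-like cells -0.26 (-0.41 to -0.12), from 303 and 93 cells, opposite to T cell-like, microglia-like and plasma cell-like cells. In dendritic cell-like cells ATP synthase was at -0.10 (-0.17 to -0.03), opposite to the OXPHOS sum. None of these differences was tested, since each group has 1 library. In the 4743 and 5998 barcodes left out for more than 2% mitochondrial counts, OXPHOS transcripts took 0.942% (0.937 to 0.947) of UMIs under control Ab and 1.20% (1.20 to 1.21) under anti-CD9 Ab, and this difference was not tested either.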

How the results depend on the processing

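No paired analysis was possible because each group has 1 library and no result comes from a test, and for the same reason no replicate could be left out. No summed difference of 0.5 or more changed sign. Among the OXPHOS and complex sums, only neutrophil-like cells (64 and 2779) had main values of that size, so this covers no other type. The summed OXPHOS log2 ratio kept its sign under 15 of 15 alternatives in T cell-like, plasma cell-like and neutrophil-like cells, 14 of 15 in microglia-like, 13 of 15 in macrophage-like, 12 of 15 in oligodendrocyte-like, 12 of 14 in dendritic cell-like and 9 of 14 in astrocyte-like cells; astrocyte-like and dendritic cell-like cells had too few cells for a value when cells were named by their own markers. Complexes are given in the order I, III, IV and ATP synthase. In T cell-like cells the sum was 0.24 with a limit of 5% mitochondrial counts (complexes I, IV and ATP synthase 0.14, 0.36 and 0.25), 0.27 centred on the median of all genes (0.19, 0.28, 0.39 and 0.28, with 17 members past the fold instead of 9, 16 of them higher, against 11% of all genes higher and 9.95% lower), 0.11 thinned to 1000 UMIs and 0.10 as the mean per-cell share. In microglia-like cells it was 0.18 with the 5% limit (0.15, 0.18, 0.28 and 0.14), 0.19 with 20 principal components (0.10, 0.23, 0.34 and 0.17, with 21 members past the fold instead of 6, 19 of them higher, against 9.75% of all genes higher and 13.3% lower), 0.051 with cells named by their own markers, 0.17 thinned, 0.16 as the mean per-cell share and 0.14 as the mean over clusters; without integration complex III was at 0.19 and ATP synthase at -0.055, with 12 members past the fold, 8 of them higher, against 10.7% of all genes higher and 16.7% lower. In macrophage-like cells it was 0.15 with the 5% limit (0.059, 0.24, 0.31 and 0.099), 0.042 with 20 components (-0.032, 0.15, 0.20 and -0.019), 0.054 with another seed (-0.034, 0.18, 0.21 and -0.00080), -0.15 with cells named by their own markers (-0.22, 0.037, -0.019 and -0.22), -0.078 without integration (-0.14, 0.057, 0.048 and -0.14), 0.37 centred (0.29, 0.46, 0.52 and 0.34), 0.20 without doublets (complexes I and IV 0.11 and 0.32), 0.27 without ribosomal, mitochondrial and Malat1 UMIs, 0.086 thinned and 0.11 as the mean per-cell share. Chosen after seeing the data, subunits of 450 bases or more gave 0.014, -0.057 and 0.018 in T cell-like, microglia-like and macrophage-like cells, and shorter ones 0.32, 0.18 and 0.40. At a log2 ratio of 1 or beyond, 0, 0 and 3 members were past the fold, the 3 on the lower side, against 3.35%, 3.38% and 6.90% of all genes higher and 2.44%, 4.23% and 10.9% lower. As medians over cells, the OXPHOS share was 1.29% in anti-CD9 Ab T cell-like cells, 0.560% and 0.613% in microglia-like and 1.07% and 1.17% in macrophage-like cells (control Ab, anti-CD9 Ab). The cause of these changes was not tested, beyond which cells or genes each alternative counts.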
